A study of Mus musculus with 20 samples.

Results

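The genes of hepatic nitrogen disposal described here were followed across the livers of mice deprived of cysteine or of tryptophan. They are 9 of the 46078 genes of the count table and were chosen by name, as the rows whose Ensembl identifiers carry the symbols Cps1, Otc, Ass1, Asl, Nags, Slc25a15, Gls2, Glul and Oat. All 9 had enough counts for a test in every comparison.

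The urea cycle turns toxic ammonia and the nitrogen of aspartate into urea, and it runs mainly in the hepatocytes around the portal vein. It starts in the mitochondria, where carbamoyl phosphate is joined to ornithine, and continues in the cytosol. Ammonia that escapes it is fixed into glutamine by a narrow rim of hepatocytes around the central vein, which also hold most of the liver's ornithine aminotransferase. Transcription of the urea cycle enzymes is known to respond to dietary protein, glucagon and glucocorticoids.

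The livers came from male mice that had been kept on a calorie-restricted (CR) control diet and were then given their test diet, still calorie restricted, for 2 days. Cse encodes cystathionine gamma-lyase, so that mice without it need cysteine from food. Of the Cse-/- mice, on a mixed 129 and C57BL/6 background, 4 received a diet without cysteine (no-Cys), 3 a diet without tryptophan (no-Trp) and 4 the latter diet with L-buthionine sulfoximine (BSO), an inhibitor of glutathione synthesis. Of the Cse+/- mice, 4 received the no-Cys, 3 the no-Trp and 2 the control diet. No Cse-/- liver on the control diet was analysed here, and the sample labels call the Cse+/- mice wild type, whereas the study's list of mice calls them heterozygous.

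The promoters of Otc and Oat are shown because these are the 2 genes called for a genotype effect that differed between the diets, with opposite signs, although both calls were lost in a fit of only the 4 groups concerned. Each sequence covers the 250 bases before the start of transcription, from RefSeq on GRCm38.p6, with matches to the letters TTNNGNAA, a motif of the C/EBP family of liver transcription factors, in capitals. Otc lies at chrX:10252055-10252304 on the plus strand and Oat at chr7:132576399-132576648 on the minus strand.
Otc: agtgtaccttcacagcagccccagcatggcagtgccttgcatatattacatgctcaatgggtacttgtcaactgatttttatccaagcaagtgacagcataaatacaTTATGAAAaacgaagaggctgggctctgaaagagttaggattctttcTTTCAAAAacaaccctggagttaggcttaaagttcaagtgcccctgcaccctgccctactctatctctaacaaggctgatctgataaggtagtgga
Oat: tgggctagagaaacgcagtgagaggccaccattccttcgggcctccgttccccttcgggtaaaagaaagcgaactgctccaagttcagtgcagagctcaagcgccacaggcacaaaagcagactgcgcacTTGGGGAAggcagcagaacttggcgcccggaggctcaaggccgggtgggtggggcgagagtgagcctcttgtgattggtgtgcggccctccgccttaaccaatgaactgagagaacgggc

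The motif was searched on both strands, and the 2 matches of Otc, the first on the plus and the second on the minus strand, do not overlap. Nags also held a match, so that 3 of the 7 promoter entries of the members held one, against 36.8% of all 32851 promoters of that length. None of the 7 entries held TGATGNAA, an element bound by ATF4 with a C/EBP partner, which 3.45% of all promoters held. None held TGACGTCA, the full cAMP response element (1.55% of all), or its core TGACG (17.8% of all). The motif ATCAAAG of the Wnt-responsive TCF factors was found in Nags alone of the members and in 3.21% of all promoters. Entries were found for 6 of the 9 genes, with 2 entries for Slc25a15, and Cps1, Asl and Gls2 had none. A match describes these letters only.

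Counts on genes ranged from 11785740 to 57986121 per library, with a median of 15252745, and the 9 genes took between 0.619% and 1.12% of them. Levels are given as CPM, which are counts relative to library size, the latter scaled with edgeR's TMM factors. A gene is called different where the adjusted p of edgeR's quasi-likelihood test is under 0.05. Cse itself, listed as Cth, was between 6.37 and 14.4 CPM in every Cse-/- liver and between 88.4 and 332 CPM in every Cse+/- liver. A pair of mice stood apart from their groups. Mouse av01 among the Cse+/- no-Cys mice had the 332 CPM of Cth and the group's highest Cps1, Ass1 and Asl, and mouse av08 among the Cse-/- no-Cys mice had 270.0 CPM of Otc against 145 to 151 CPM in the other 3. Values of the 9 genes and counts of called genes of other lists in tests of these groups are given with and without both mice. Shares of all genes called are from edgeR with all mice. Counts with mice left out or from DESeq2, another test, have no such share beside them.

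The summed level of 7 hepatocyte markers, Cps1 among them, was 44754, 47322, 43056 and 73549 CPM in Cse-/- no-Cys livers av05 to av08 and ranged from 88604 to 115661 CPM in Cse+/- no-Cys livers. Most of the sum was Alb, albumin, at 25507, 28858, 26833 and 49495 CPM in the first group and 64175 to 87978 CPM in the second. Mouse av08 was thus apart from its group in these as well as in Otc. Between these groups Alb, Ttr, Apoa1 and Serpina1a were lower in Cse-/- livers (log2 fold changes of -1.26, -1.04, -0.77 and -0.61), Cps1 was higher (0.58), and Fgb (-0.39) and Tat (-0.10) were not called. In bulk tissue, fewer cells of a type and less RNA per cell cannot be told apart. The 6 cholangiocyte markers summed to 16.4, 22.3, 21.5 and 28.8 CPM in the first of these groups and to 46.1 to 57.9 CPM in the second. Kupffer cell markers summed to 163 to 214 and 198 to 257 CPM, endothelial markers to 156 to 182 and 160 to 203 CPM, and stellate cell markers to 179 to 216 and 206 to 252 CPM in the same order of groups, with ranges that overlapped. The part of all these in the results on these groups was not tested. Of other organs, 5 pancreas markers summed to at most 1.62 CPM and 5 muscle markers to at most 1.17 CPM. The 5 kidney markers were at 21.7 CPM in control mouse av22 and 6.73 CPM in Cse-/- no-Trp mouse av15, and at or below 0.991 CPM in the other livers. The 4 small intestine markers found in the table summed to 189 to 474 CPM in Cse-/- no-Cys livers, 356 to 877 CPM in Cse+/- no-Cys livers and 146 to 474 CPM in the remaining livers. Of these, Apoa4, which hepatocytes also express, was between 84.5 and 850.5 CPM and Fabp2 between 26.0 and 70.2 CPM, whereas Vil1 was at most 0.416 CPM and Lct at most 0.119 CPM.

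Per kilobase of exon, averaged over the 20 livers, the 9 genes spanned a wide range of levels. Ass1 (argininosuccinate synthase, 753 CPM per kb) and Cps1 (carbamoyl phosphate synthetase, 611 CPM per kb) stood highest. Glul (glutamine synthetase, 323 CPM per kb) and Oat (ornithine aminotransferase, 293 CPM per kb) followed. Asl (argininosuccinate lyase) was at 135, the mitochondrial glutaminase Gls2 at 87.4, Otc (ornithine transcarbamylase) at 75.4 and the mitochondrial ornithine carrier Slc25a15 at 67.8 CPM per kb. Nags, which makes the N-acetylglutamate that Cps1 needs to be active, was lowest at 18.9 CPM per kb. This order of Gls2, Otc and Slc25a15 was not that of every group, since the group means of Otc were above those of Gls2 in Cse+/- no-Cys (91.0 against 80.6 CPM per kb) and Cse+/- no-Trp livers (86.3 against 78.9), and that of Otc was below that of Slc25a15 in Cse-/- no-Cys livers (42.2 against 85.5). In Cse-/- no-Cys livers the mean of Oat was also above that of Glul (335 against 286 CPM per kb). Across single livers Otc varied the most of the 9, with 2.82-fold between its lowest and highest library, and Glul the least, with 1.48-fold.

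**Figure D1:**
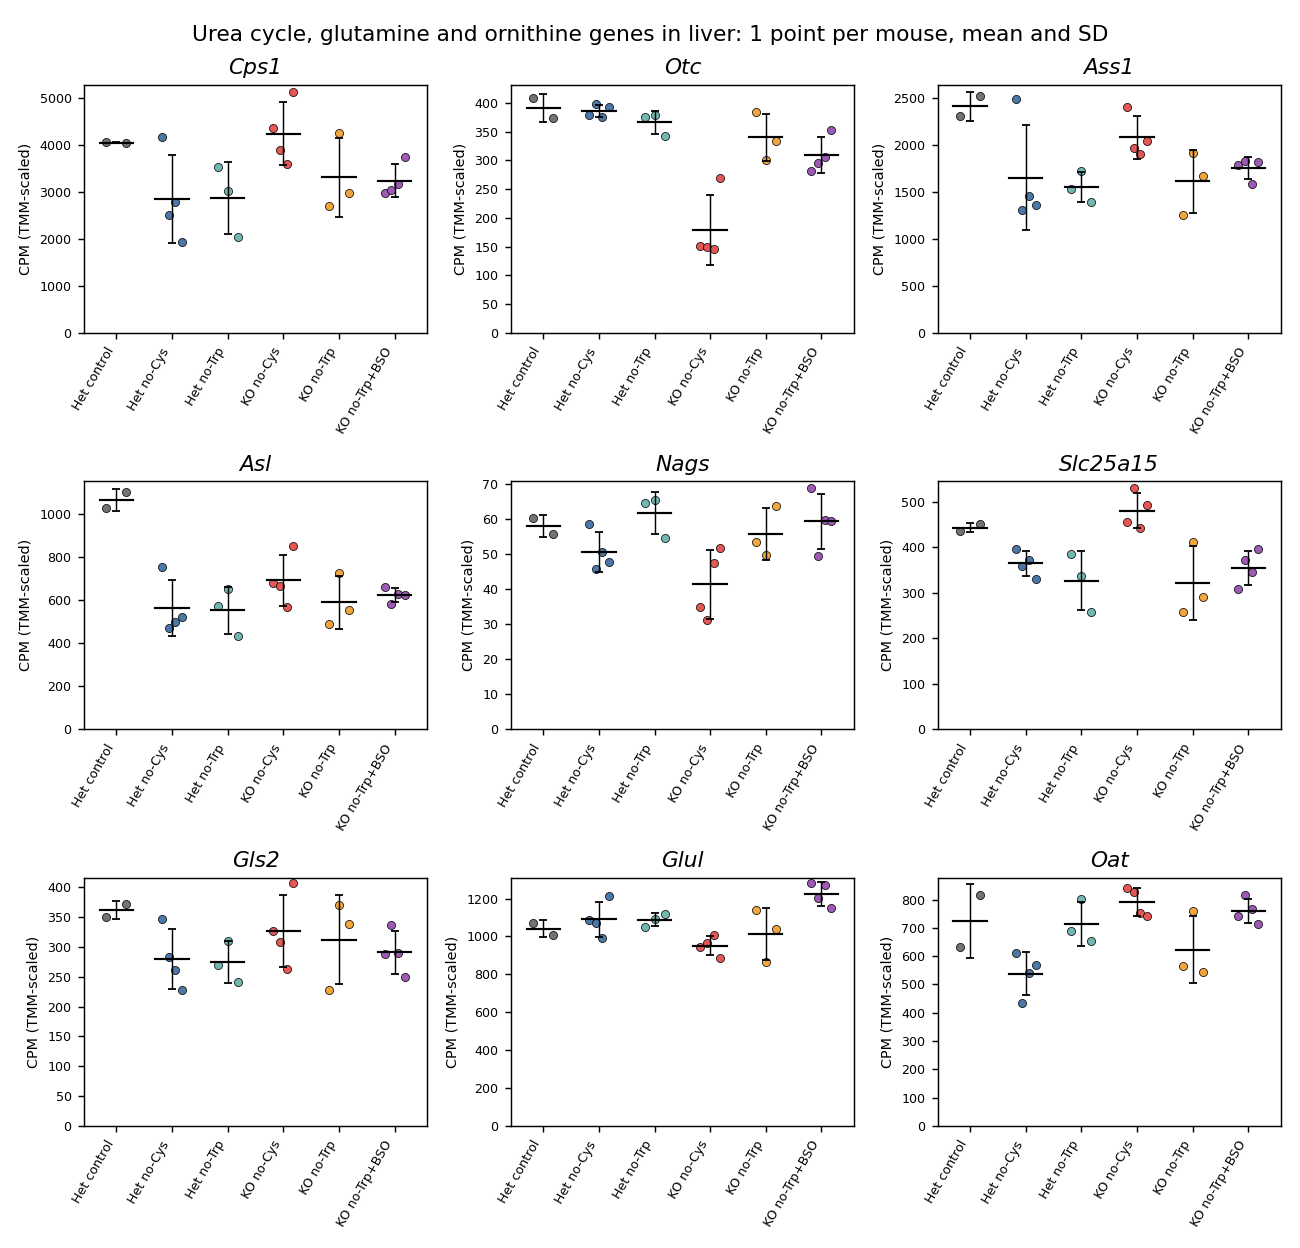
CPM of each of the 9 genes (vertical axes, from 0) in the 6 groups (horizontal axes), with 1 point per mouse, the mean as a line and the SD as a bar. The 4 Cse-/- no-Cys livers, labelled KO no-Cys, sit between 145 and 270.0 CPM for Otc, below the other 16 livers.

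The comparison of the genotypes on the no-Cys diet gives the difference between Cse-/- and Cse+/- livers when food lacks cysteine. With no Cse-/- liver on the control diet, it cannot tell a change on this diet from an earlier genotype difference. Cps1, Slc25a15 and Oat were higher in Cse-/- livers, whereas Otc, the enzyme between Cps1 and Ass1 in the cycle, was below its level in any other liver. Thus 4 of the 9 genes were called, 3 higher and 1 lower, where 23.8% of all 14759 genes tested were called, 11.6% higher and 12.2% lower. The median log2 fold change was 0.30 over the 9 genes and -0.01 over all genes.

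Otc joins carbamoyl phosphate to ornithine to form citrulline. In the Cse-/- no-Cys livers av05 to av08 it was at 151, 149, 145 and 270.0 CPM. In the Cse+/- no-Cys livers av01 to av04 it was at 379, 398, 375 and 393 CPM. The groups did not overlap, and even the highest Cse-/- liver lay below every Cse+/- liver. On the log2 scale the difference was -1.11 ± 0.154 (standard error, SE), with an edgeR adjusted p of 5.39e-05. Without av01 and av08 it was -1.39, and the call held under every alternative tried.

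Cps1, the first and rate-controlling enzyme of the cycle, moved the other way. It was at 4361, 3896, 3598 and 5117 CPM in the Cse-/- livers and at 4159, 2507, 2785 and 1935 CPM in the Cse+/- livers. The groups overlapped only through av01, whose 4159 CPM lay within the Cse-/- range. edgeR gave a log2 fold change of 0.58 ± 0.204 (SE) with an adjusted p of 0.0457. It was 0.72 without av01 and av08 (adjusted p = 0.0108). With av02, av03, av04, av05, av06 or av08 left out, Cps1 was no longer called (edgeR adjusted p between 0.0589 and 0.136).

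Counts of Otc as a percentage of those of Cps1 in the same liver need no scaling between libraries. This percentage was 3.47, 3.83, 4.03 and 5.28 in the Cse-/- no-Cys livers and 9.11, 15.9, 13.5 and 20.3 in the Cse+/- no-Cys livers. It was 14.2, 7.07 and 11.2 in Cse-/- no-Trp, 10.6, 12.5 and 16.9 in Cse+/- no-Trp, and 10.1 and 9.25 in control livers. In Cse-/- no-Trp + BSO livers it lay between 9.43 and 9.68. All Cse-/- no-Cys livers thus lay below the other 16, with 7.07 as the nearest value. On the log2 scale the mean of the Cse-/- no-Cys livers was below that of Cse+/- no-Cys livers by a difference of -1.78, and the differences from Cse-/- no-Trp and BSO-treated livers were -1.35 and -1.22. Between genotypes on the no-Trp diet it was -0.33. The percentage sets the gene called lower against one called higher in the same livers and was chosen after their values were seen, so these differences are a description and were given no test.

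**Figure D2:**
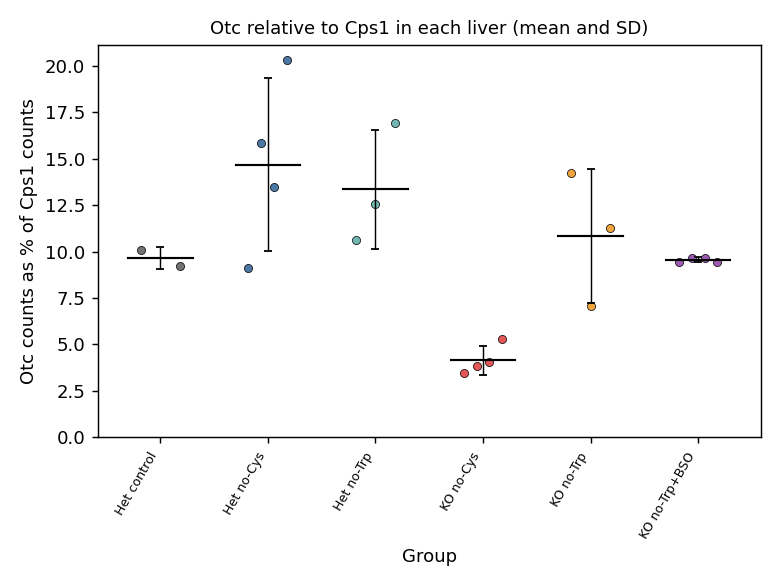
Counts of Otc as a percentage of the counts of Cps1 in the same liver (vertical axis, from 0) in the 6 groups (horizontal axis), with 1 point per mouse, the mean as a line and the SD as a bar. The Cse-/- no-Cys livers (KO no-Cys) lie between 3.47% and 5.28%, below all other livers.

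The cytosolic enzymes Ass1 and Asl had positive values like Cps1 but were not called with all mice. Ass1, which couples citrulline to aspartate, was at 2413, 1976, 1904 and 2048 CPM in Cse-/- and 2495, 1307, 1455 and 1364 CPM in Cse+/- no-Cys livers. Mouse av01 was above every Cse-/- liver, and the other 3 Cse+/- livers were below all of them. The log2 fold change was 0.33 and missed the threshold (edgeR adjusted p = 0.163), but without av01 it was 0.60 (adjusted p = 0.00262), and 0.61 without av01 and av08 (adjusted p = 0.00317). Of the 61-base words of its transcripts, 36.0% also occur in Gm5424, a near copy with a mean of 751 CPM, so that reads may be split or lost between them. With the counts of Gm5424 added to Ass1, the log2 fold change was 0.35 (edgeR adjusted p = 0.138). Asl, which releases arginine, gave 0.30 (edgeR adjusted p = 0.185), 0.47 without av01 (adjusted p = 0.0279) and 0.36 without av01 and av08 (adjusted p = 0.0763).

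Slc25a15, which brings ornithine into the mitochondria for Otc, was at 456, 530.5, 443 and 494 CPM in Cse-/- no-Cys livers and at 396, 359, 372 and 331 CPM in Cse+/- no-Cys livers. The groups did not overlap. On the log2 scale the difference was 0.40 ± 0.136 (SE), with an edgeR adjusted p of 0.0385, and it was 0.43 without av01 and av08, where the call was lost (adjusted p = 0.0591). Without av02, av03, av04, av06 or av08 alone it was not called either (edgeR adjusted p between 0.0617 and 0.102). Nags, at 34.9, 31.2, 47.4 and 51.8 CPM against 58.5, 45.7, 50.4 and 47.6 CPM, gave -0.29 (edgeR adjusted p = 0.148), -0.42 without av08 (adjusted p = 0.0386) and -0.34 without av01 and av08 (adjusted p = 0.101).

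Oat, which breaks ornithine down towards glutamate, was at 841, 826, 754 and 743 CPM in Cse-/- no-Cys livers and at 609, 433, 540.5 and 569 CPM in Cse+/- no-Cys livers. The groups did not overlap. edgeR gave a log2 fold change of 0.56 ± 0.123 (SE) with an adjusted p of 0.00290, and the call held under every alternative tried. Control livers, at 632 and 817 CPM of Oat, overlapped with the Cse-/- no-Cys livers. Gls2, which frees ammonia from glutamine, gave 0.22 (edgeR adjusted p = 0.328). Glul, which makes glutamine, gave -0.20 (edgeR adjusted p = 0.119), with 942, 966, 1006 and 888 CPM against 1087, 1071, 993 and 1214 CPM. For Glul only Cse-/- mouse av07 lay within the Cse+/- range. With av01 and av08 left out, the values were 0.65 for Oat, 0.22 for Gls2 and -0.17 for Glul.

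Of 42 other genes of amino acid and nitrogen metabolism, 37 were tested, and in this comparison 10 were higher and 5 lower in Cse-/- livers, against 11.6% and 12.2% of all genes, with a median log2 fold change of 0.15. The number called was 18 without av01 and av08. The highest were Asns (asparagine synthetase, 4.46, edgeR adjusted p = 7.77e-06), Slc7a1 (a carrier of cationic amino acids, 2.84), Pycr1 (proline synthesis, 2.08) and Got1 (cytosolic aspartate aminotransferase, 1.42), all on the log2 scale. The 5 lower genes were Car5b (a mitochondrial carbonic anhydrase, -1.19), the creatine synthesis enzymes Gamt (-1.05) and Gatm (-0.86), Prodh2 (hydroxyproline dehydrogenase, -0.70) and Glud1 (glutamate dehydrogenase, -0.34). Levels were low for Slc7a1, Pycr1, Car5b and Gatm, with means of 3.45, 3.02, 0.959 and 4.40 CPM in Cse-/- and 0.489, 0.714, 2.19 and 7.93 CPM in Cse+/- livers. Got1, whose reaction also yields the aspartate used by Ass1, and Cps1 were thus higher, and Glud1, which releases ammonia from glutamate, was lower. Mean Got1 was 927 CPM in Cse-/- no-Cys, 347 CPM in Cse+/- no-Cys and 1279 CPM in control livers. Whether these changes are linked was not tested.

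The same Cse-/- no-Cys livers were then compared with Cse-/- livers on a diet lacking tryptophan, another essential amino acid. With no Cse-/- liver on the control diet, a difference cannot be assigned to missing cysteine or to missing tryptophan. Otc was again lower, and Slc25a15 higher. These 2 were the called genes of the 9, where 10.4% of all genes were called, 5.05% higher and 5.35% lower, and the median of the 9 was 0.23. This comparison and the ones with Cse+/- no-Cys and with BSO-treated livers share the Cse-/- no-Cys livers. Of the hepatocyte markers 3 of 7 were lower here as well (median -0.43), with sums of 67624 to 73914 CPM in the no-Trp livers, and of the cholangiocyte markers 1 of 5 (median -0.60), with sums of 27.6 to 46.2 CPM. Their part in these results was not tested.

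Otc was at 384, 301 and 334 CPM in the Cse-/- no-Trp livers, each above the 270.0 CPM of av08, the highest Cse-/- no-Cys liver. This was a log2 fold change of -0.93 ± 0.163 (SE, edgeR adjusted p = 0.00168), and -1.19 without av01 and av08. The call held in every alternative. Slc25a15 was at 259, 413 and 291 CPM, each below the lowest Cse-/- no-Cys liver, with a log2 fold change of 0.58 ± 0.148 (SE, edgeR adjusted p = 0.0176). Slc25a15 was not called without av06 (adjusted p = 0.0529), av14 (0.105) or av16 (0.0707), or in a fit of only the pair of groups (0.0794).

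Of the genes not called, Ass1 (0.37, edgeR adjusted p = 0.210), Cps1 (0.36, 0.320), Oat (0.34, 0.104) and Asl (0.23, 0.430) had positive values. Nags had -0.43 (edgeR adjusted p = 0.0746), which became a call without av08 (-0.55, adjusted p = 0.0196) and with DESeq2 (adjusted p = 0.0486). Gls2 (0.07, edgeR adjusted p = 0.853) and Glul (-0.09, 0.592) were close to 0. In the fit without av01 and av08, Slc25a15 was at 0.58 and Nags at -0.55, both called (edgeR adjusted p = 0.0221 and 0.0163), and the values not called were 0.38 for Ass1, 0.26 for Cps1, 0.38 for Oat, 0.12 for Asl, -0.05 for Gls2 and -0.05 for Glul.

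Of the 37 other nitrogen genes, 5 were higher and 2 lower than in Cse-/- no-Trp livers, against 5.05% and 5.35% of all genes. The highest were Asns (2.31) and Slc3a2, a subunit of amino acid transporters (0.99), followed by the glutamate carrier Slc25a22 (0.62), the cationic amino acid carrier Slc7a2 (0.60) and Cad (0.59), which starts pyrimidine synthesis with its own carbamoyl phosphate. Gamt (-0.68) and Prodh2 (-0.56) were lower, as they were against Cse+/- no-Cys livers. The count of 7 fell to 3 or 4 without av05, av14 or av16 and rose to 11 without av08 and 12 without av01 and av08. It was 11 with DESeq2.

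The comparison with Cse-/- livers given the no-Trp diet with BSO asks how these genes compare where tryptophan is missing and glutathione synthesis is blocked. Otc and Glul were lower in the Cse-/- no-Cys livers, 2 of the 9 genes, where 2.75% of all genes were called and 1.42% were called lower. The median of the 9 was 0.15. Of the hepatocyte markers 3 of 7 were lower (median -0.50), with sums of 63955 to 79898 CPM in BSO-treated livers, and of the cholangiocyte markers 2 of 5 (median -0.76), with sums of 36.4 to 48.9 CPM, and their part was not tested.

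Otc was at 281, 295, 307 and 353 CPM in the BSO-treated livers, above the Cse-/- no-Cys livers without overlap. On the log2 scale the difference was -0.79 ± 0.153 (SE), with an edgeR adjusted p of 0.0129, and -1.06 without av01 and av08. The call was lost without av05 (-0.72, adjusted p = 0.0625), av06 (-0.71, 0.0666) or av07 (-0.69, 0.0524), each of which left av08 among 3. The group mean of Otc in BSO-treated livers was nonetheless next above that of Cse-/- no-Cys livers in the order of the 6 groups, at 309 CPM.

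Glul was at 1282, 1202, 1269 and 1147 CPM in BSO-treated livers, all above the 888 to 1006 CPM of the Cse-/- no-Cys livers. edgeR gave a log2 fold change of -0.37 ± 0.0910 (SE) with an adjusted p of 0.0356. The call was lost when any of the 8 mice other than av08 was left out, with edgeR adjusted p between 0.0613 and 0.115, and it was lost without a filter on low counts (0.0522). Nags, at 68.8, 49.4, 59.7 and 59.2 CPM in BSO-treated livers, narrowly missed the threshold with -0.52 (edgeR adjusted p = 0.0517) and was called with DESeq2 (adjusted p = 0.0145) and without av08 (-0.65, 0.00915). Slc25a15 (0.44, edgeR adjusted p = 0.0822) was called with DESeq2 (0.0319). Ass1 (0.25, edgeR adjusted p = 0.439) and Oat (0.06, 0.828) were not called, although the groups did not overlap for Ass1. Not called either were Cps1 (0.39, edgeR adjusted p = 0.293), Gls2 (0.17, 0.590) and Asl (0.15, 0.646), whose groups overlapped. On leaving out av01 and av08, Glul was at -0.34 and Nags at -0.65, both called (edgeR adjusted p = 0.0372 and 0.00711), and the values not called were 0.42 for Slc25a15, 0.29 for Cps1, 0.25 for Ass1, 0.09 for Oat, 0.04 for Gls2 and 0.03 for Asl.

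Of the 37 other nitrogen genes, 4 were called, where 2.75% of all genes were, and all 4 were higher than in BSO-treated livers, namely Pycr1 (1.97), Asns (1.72), Slc3a2 (0.83) and Odc1, ornithine decarboxylase (0.81). The count was 0 or 1 without av05, av06, av07, av09, av11 or av12 and 12 without av08, with or without av01. It was 8 with DESeq2, and no share of all genes is given for these fits.

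**Figure D3:**
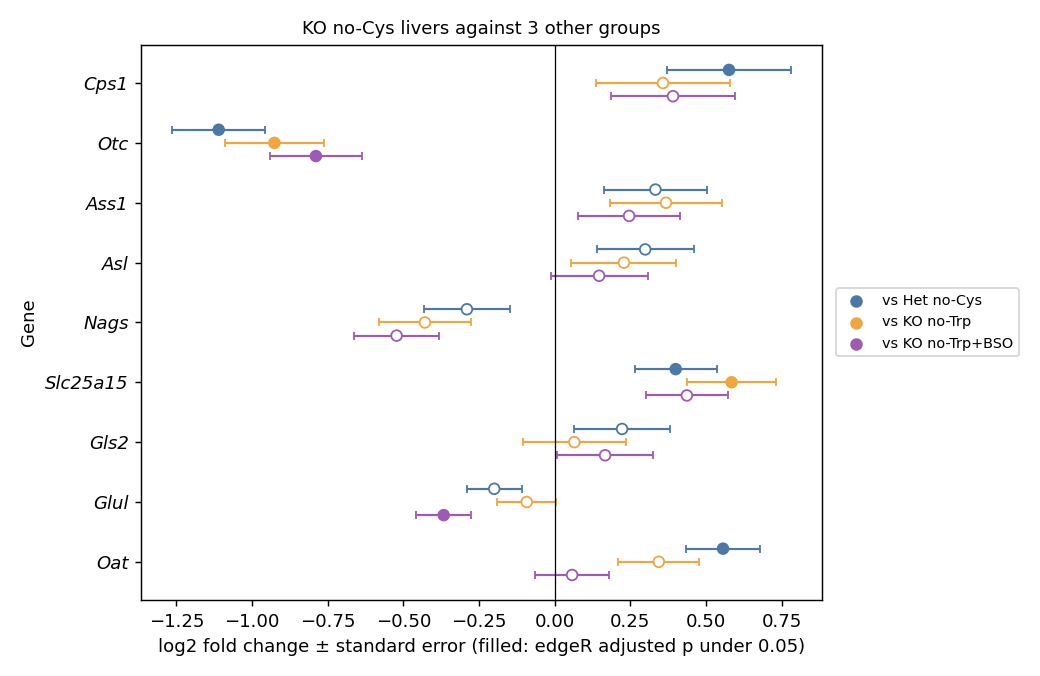
Log2 fold change (horizontal axis) with its standard error of each gene (vertical axis) in Cse-/- no-Cys livers against the 3 other groups named in the key, filled where the edgeR adjusted p is under 0.05. Otc lies at -1.11, -0.93 and -0.79 and is filled in all 3 comparisons, which share the Cse-/- no-Cys livers.

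Between genotypes on the no-Trp diet, none of the 9 genes was called by edgeR, and none had an unadjusted p under 0.05, where 2.64% of all genes were called. DESeq2 called none either. The largest value was the 0.21 of Cps1 (edgeR adjusted p = 0.677), and the groups overlapped for all 9 genes. Otc was at 376, 379 and 343 CPM in Cse+/- no-Trp livers, which gave -0.11 ± 0.175 (SE, edgeR adjusted p = 0.791). The other values were 0.19 for Gls2, 0.10 for Asl, 0.06 for Ass1, -0.02 for Slc25a15, -0.10 for Glul, -0.15 for Nags and -0.20 for Oat. Of the 37 nitrogen genes, Asns alone was called (2.96, edgeR adjusted p = 0.0107), where 2.64% of all genes were, and it was not without av19.

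Whether the genotypes differed by diet was tested as the difference of the 2 genotype effects. Otc (-1.003 ± 0.232, edgeR adjusted p = 0.0186) and Oat (0.75 ± 0.188, edgeR adjusted p = 0.0271) passed, 2 of the 9 genes, where 4.36% of all genes were called, 1.67% with a positive and 2.69% with a negative value. For Otc, the genotype effect was -1.11 on the no-Cys and -0.11 on the no-Trp diet. For Oat it was 0.56 and -0.20, and Cse+/- livers were at 687, 803 and 653 CPM on the no-Trp diet, above all 4 Cse+/- no-Cys livers, while Cse-/- livers were at 564, 760 and 546 CPM. Both calls were lost in a fit of only these 4 groups (edgeR adjusted p = 0.0506 for Otc and 0.0587 for Oat). That of Otc was lost without av14 (-0.90, adjusted p = 0.0507) and that of Oat without av02, av06, av14, av16 or av19 (adjusted p between 0.0540 and 0.0705). Without av01 and av08 the values were -1.28 for Otc and 0.85 for Oat, both called. The genes not called had 0.42 for Slc25a15, 0.37 for Cps1, 0.28 for Ass1, 0.20 for Asl, 0.04 for Gls2, -0.10 for Glul and -0.14 for Nags (edgeR adjusted p between 0.267 and 0.963). In the same order, without av01 and av08, these were 0.46, 0.51, 0.56, 0.26, 0.03, -0.06 and -0.19, and none was called. Of the 7 hepatocyte markers 2 had a called negative value (median of the 7 -0.15). Of the 6 endothelial markers 1 had a called positive value (median of the 6 -0.13). The part of these markers was not tested. Of the nitrogen genes, Got1 (1.54) and Slc3a2 (1.24) had a more positive and Gamt (-1.03) and Prodh2 (-0.59) a more negative genotype effect on the no-Cys diet, 4 of 37 in all against 4.36% of all genes, with 2 to 9 when single mice were left out and 11 without av01 and av08. DESeq2 called 7.

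**Figure D4:**
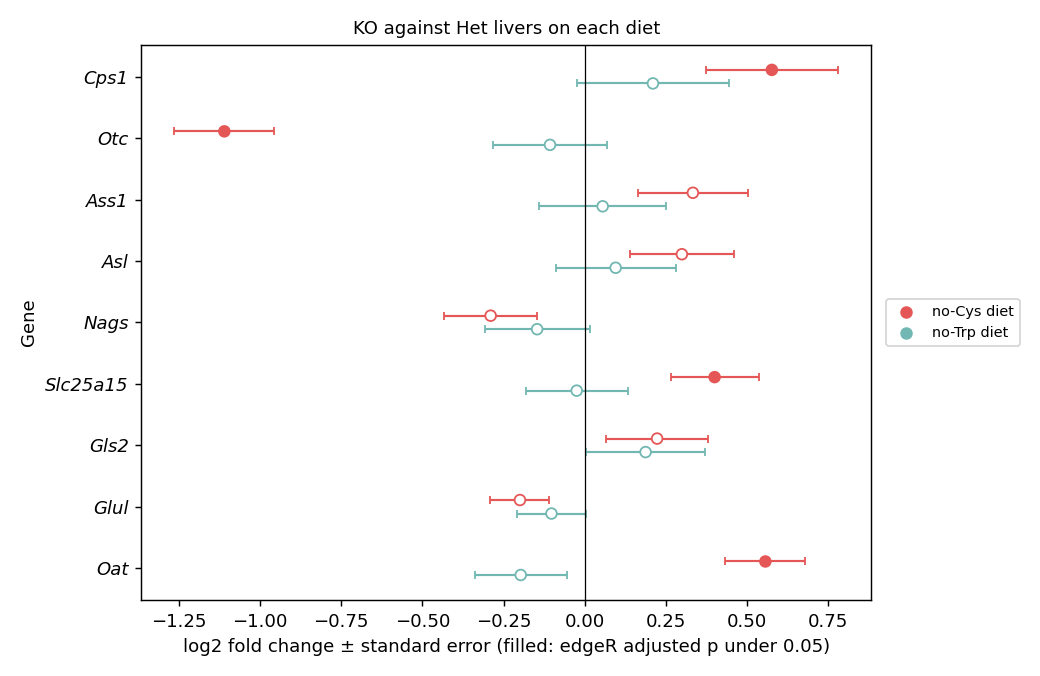
Log2 fold change (horizontal axis) with its standard error of each gene (vertical axis) in Cse-/- (KO) against Cse+/- (Het) livers on the no-Trp and no-Cys diets, filled where the edgeR adjusted p is under 0.05. The diets stand far apart for Otc (-1.11 and -0.11) and on either side of 0 for Oat (0.56 and -0.20).

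Adding BSO to the no-Trp diet of Cse-/- mice gave no call among the 9 genes with edgeR or DESeq2, where 0.793% of all genes were called. Glul (0.27, edgeR adjusted p = 0.202) and Oat (0.29, 0.364) had unadjusted p under 0.05. The other values were 0.15 for Slc25a15, 0.12 for Ass1, 0.09 for Nags, 0.08 for Asl, -0.03 for Cps1, -0.10 for Gls2 and -0.14 for Otc (edgeR adjusted p between 0.736 and 0.975). The BSO-treated livers, from 1147 to 1282 CPM of Glul, lay above the no-Trp livers at 1138, 864 and 1037 CPM. Among the nitrogen genes, Cad alone of 37 was called (0.68, edgeR adjusted p = 0.0227), where 0.793% of all genes were, and none without av09, av11, av12, av14 or av15.

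Within Cse+/- mice, the deficient diets were each compared with the same 2 control livers, so that both rest on a single pair. Asl was lower on the no-Cys diet, 1 of the 9 genes, where 2.18% of all genes were called and 1.19% lower. It was at 1029.7 and 1102 CPM in control livers, and at 755, 472, 500.4 and 520 CPM in no-Cys livers. The groups did not overlap, and the control livers were also above every Cse-/- liver, the highest of which was at 853 CPM. This was a log2 fold change of -0.92 ± 0.191 (SE, edgeR adjusted p = 0.0138). The call was lost without av21 (adjusted p = 0.0514) or av22 (0.212) and in a fit of only the pair of groups (0.0523). It was -1.09 without av01 and av08 (edgeR adjusted p = 0.00140). Kidney also makes arginine with Ass1 and Asl, and the kidney markers summed to 0.0595 CPM in av21 and to 21.7 CPM in av22. Of 5 cholangiocyte markers tested, 1 was lower (median -0.47), with sums of 57.4 and 83.0 CPM in control and 46.1 to 57.9 CPM in no-Cys livers. The part of all these markers in the result was not tested.

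On the no-Trp diet Asl was at 573, 650.2 and 433 CPM, with a log2 fold change of -0.95 against the same controls (SE 0.204, edgeR adjusted p = 0.133). None of the 9 genes was called by edgeR, 3 had unadjusted p under 0.05, and DESeq2 called Asl alone (adjusted p = 0.00508), where edgeR called 0.0474% of all genes. Ass1 was at 2309 and 2526 CPM in controls and lower in all but av01 of the Cse+/- livers on a deficient diet. Its values were -0.55 on the no-Cys (edgeR adjusted p = 0.170) and -0.64 on the no-Trp diet (0.343). For Ass1 on the no-Cys diet, leaving out av01 gave a call (-0.80, edgeR adjusted p = 0.00606), as did leaving out av01 and av08 (-0.80, adjusted p = 0.00569). Otc, by contrast, was at 409 and 374 CPM in controls, with -0.02 on the no-Cys and -0.10 on the no-Trp diet (edgeR adjusted p = 0.969 and 0.925). Glul gave 0.07 and 0.06 (0.808 and 0.915). The values not called on the no-Cys diet were also -0.51 for Cps1, -0.43 for Oat, -0.37 for Gls2, -0.28 for Slc25a15 and -0.20 for Nags (edgeR adjusted p between 0.134 and 0.603). On the no-Trp diet they were -0.50 for Cps1, -0.02 for Oat, -0.40 for Gls2, -0.44 for Slc25a15 and 0.09 for Nags (edgeR adjusted p between 0.441 and 0.980). Without av01 and av08, those of the no-Cys diet were -0.74 for Cps1, -0.48 for Oat, -0.48 for Gls2, -0.31 for Slc25a15, -0.26 for Nags, -0.00020 for Otc and 0.08 for Glul, and none was called.

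Over the 9 genes the median was -0.37 on the no-Cys and -0.40 on the no-Trp diet, against 0.01 and -0.01 over all genes. Of the other nitrogen genes, Got1 (-1.88, edgeR adjusted p = 0.000338) and the alanine aminotransferase Gpt2 (-0.58, 0.0251) were lower on the no-Cys diet than in controls, 2 of 37 against 1.19% of all genes, a count that fell to 1 without av02, av03, av21 or av22 and rose to 4 without av01 and 5 without av01 and av08. None was called on the no-Trp diet by edgeR, while DESeq2, for which no share of all genes is given, called 3.

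**Figure D5:**
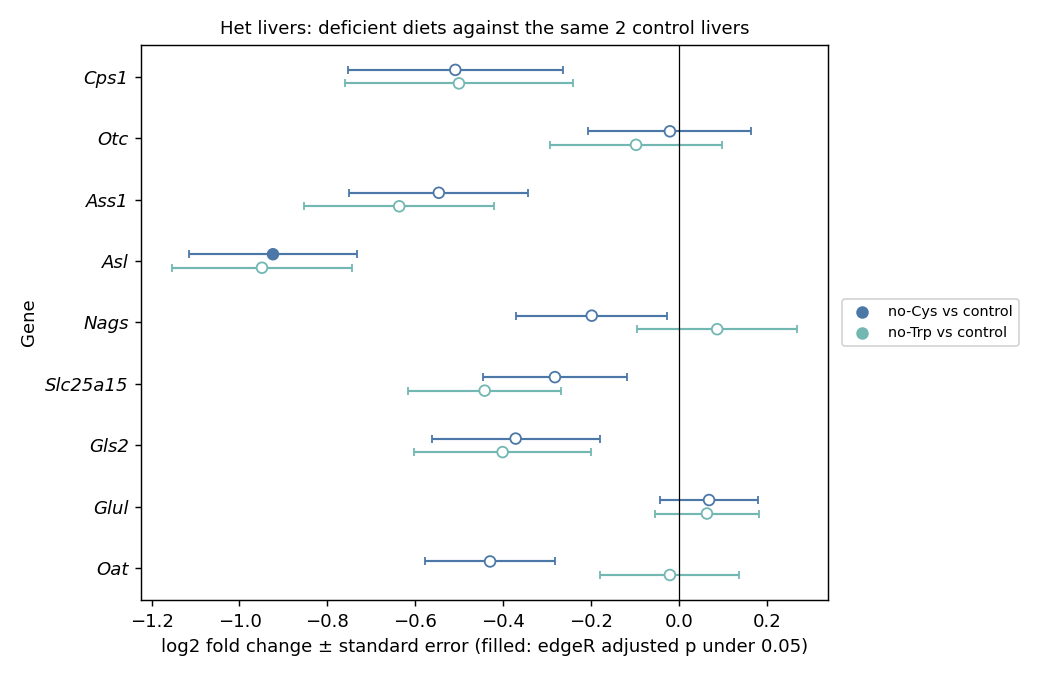
Log2 fold change (horizontal axis) with its standard error of each gene (vertical axis) in Cse+/- (Het) livers on the no-Cys or no-Trp diet against the same 2 control livers, filled where the edgeR adjusted p is under 0.05. Asl lies at -0.92 and -0.95 and is filled on the no-Cys diet only.

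Set side by side, the Cse+/- livers on the 2 deficient diets differed in none of the 9 genes by edgeR, with 1 unadjusted p under 0.05, where 8.04% of all genes were called. That gene was Oat (-0.41 ± 0.132, edgeR adjusted p = 0.0608), whose groups did not overlap and which DESeq2 called (0.0319). The remaining values were 0.16 for Slc25a15, 0.09 for Ass1, 0.08 for Otc, 0.03 for Gls2, 0.02 for Asl, 0.0048 for Glul, -0.0083 for Cps1 and -0.29 for Nags (edgeR adjusted p between 0.253 and 0.984). Without av01 and av08, Oat was called (-0.47, edgeR adjusted p = 0.0403), and the remaining values were 0.12 for Slc25a15, -0.17 for Ass1, 0.09 for Otc, -0.09 for Gls2, -0.15 for Asl, 0.01 for Glul, -0.24 for Cps1 and -0.36 for Nags. Of the nitrogen genes Got1 was lower on the no-Cys diet (-0.90) and the glycerol and urea channel Aqp9 higher (0.43), a count of 2 of 37, where 8.04% of all genes were called, that was 1 without av02, av17 or av19, 5 without av01 and 6 without av01 and av08. DESeq2 called 5.

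Over all 6 groups, the order of the mean levels differed between the genes. Control livers were highest for Otc (392 ± 24.8 CPM, SD, n = 2), Ass1 (2417 ± 154), Asl (1066 ± 51.2) and Gls2 (362 ± 15.4). Cse-/- no-Cys livers were highest for Cps1 (4243 ± 662 CPM, SD, n = 4), Slc25a15 (481 ± 39.4) and Oat (791 ± 49.6), and lowest for Otc (179 ± 60.8), Nags (41.3 ± 9.83) and Glul (950.2 ± 49.5). Neighbours in the order did not overlap at 1 step for Otc (Cse-/- no-Cys below BSO-treated), Ass1 (Cse-/- no-Cys above BSO-treated), Asl (controls above Cse-/- no-Cys) and Slc25a15 (controls above Cse+/- no-Cys), and at no step for the other 5 genes, where 25.3% of all genes had 1 such step or more. In Cse-/- no-Cys livers Cps1 and Oat overlapped with the control range, whereas Asl lay below it.

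Over the 20 livers, which share their groups and their scaling, Cps1 followed Ass1 (Pearson's r of log2 CPM 0.82), Slc25a15 (0.79), Asl (0.77) and Gls2 (0.74). Otc did not, with -0.38 against Cps1 and -0.04 against Asl, and its closest member was Nags (0.68). Among 7844 genes with a mean of at least 10 CPM, those most like Otc were the complement protease gene C1s1 (0.96), the bile acid ligase Slc27a5 (0.96) and Tcea3 (0.95). Those most like Cps1 were Acmsd, an enzyme of tryptophan breakdown (0.87), Mat1a, which makes S-adenosylmethionine (0.86), and the homocysteine methyltransferase gene Bhmt2 (0.85). For Ass1 they were Gm5424 (0.98), Acmsd (0.88) and Rhbdd2 (0.86), and for Asl Gm5424 (0.89), the serine dehydratase Sds (0.89) and Ass1 (0.85).

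Glul had its likest genes in Rnaseh2c (0.87), the Wnt target Notum (0.83) and Phf1 (0.81). For Oat they were Lhpp (0.83), Mybbp1a (0.82) and Ahsg (0.81), for Slc25a15 Gldc of the glycine cleavage system (0.88), Pptc7 (0.86) and Psmd6 (0.85), for Nags Fgfr3 (0.85), Foxj2 (0.85) and Dgcr2 (0.84), and for Gls2 Mfsd4a, Gm4737 and Gm9826 (each 0.78). Of the transcript sequence of Glul, 8.97% occurs in other genes, 6.85% in the pseudogene Glns-ps1 (mean 12.4 CPM), and of the other 8 genes only that of Ass1 does so as well. Gls2 overlaps Spryd4 on the opposite strand (32.9 CPM), Oat overlaps Fgfr2 on the same strand (39.1 CPM), and Nags and Glul overlap genes under 4 CPM.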

How the data were processed

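Poly(A) RNA from 20 livers in 6 groups was analysed. The authors aligned reads with HISAT2 2.1.0 to GRCm38, counted them per gene with HTSeq 0.11.0 and deposited unnormalized counts. Their annotation release: not given in the sources used here. Columns were assigned to groups by the study's list of mice, and 1 of the 21 columns, with no listed condition, was not used. Symbols (45229 genes, 849 without), coordinates and exon lengths came from a GENCODE annotation of GRCm38.

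Differential expression was tested in R 4.3.3 with edgeR 4.0.16. Genes passing filterByExpr (minimum count 10, total 15; 14759 genes) were scaled with TMM factors, and a single quasi-likelihood fit gave every group its own mean (common dispersion 0.027). Two-sided p-values were Benjamini-Hochberg adjusted over all genes tested, and values under 0.05 are called. The SE of a log2 fold change is its size over the square root of the F statistic. Log2 CPM for correlations used a prior count of 2. Pairs of livers within groups differed by more than counting noise (chi-square per gene 9.60 to 64.2 over 25 pairs). The labels mark the libraries as biological replicates, and p-values measure differences against the variation among mice. On simulated data, edgeR recovered 161 of 200 changed genes among 13297 for the comparison of genotypes on the no-Cys diet (73% at 2-fold, 88% at 4-fold), with 11 false calls. The simulation fitted only the libraries of that comparison, with changes of 2-fold and 4-fold, so it gives no recovery for smaller changes.

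Members and lists were chosen with earlier results of these data known, and 1 further gene of the set is not reported here. All 9 genes reported are named in every comparison, and of the other lists the called genes with the largest change, at most 4 per comparison, or all those behind a count of 5 or fewer. The genes most like a member are the 3 with the highest Pearson's r. The alternatives were DESeq2 1.42.0 (the tool of the study's methods), RLE and upper-quartile factors, no filter, a minimum mean CPM of 1, fitting the compared groups alone, a threshold of 0.01 and leaving out each mouse. Thinning to the shallowest library, leaving out av01 and av08 together, adding Gm5424 to Ass1, and the percentage of Otc to Cps1 counts were chosen after seeing the data. Figures used Python 3.11.15 and matplotlib 3.10.9.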

Additional observations from a re-analysis of the deposited data

Results flagged for a closer look

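Of 27 sets of 4 mice (9 genes in the 3 groups of 4), 3 had a mouse far from the others by Dixon's criterion, where chance alone gives about 1 in 20. Mouse av08 among the Cse-/- no-Cys mice had 270.0 CPM of Otc, and its 3 group mates had 145 to 151 CPM. Mouse av01 among the Cse+/- no-Cys mice had 2495 CPM of Ass1 and 755 CPM of Asl, and the remaining 3 had 1307 to 1455 CPM and 472 to 520.1 CPM.

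The genotype effect differed between the no-Cys and no-Trp diets for Otc, with an interaction of -1.003 on the log2 scale, and for Oat, with 0.75 (edgeR adjusted p = 0.0186 and 0.0271). Both calls were lost in a fit of only these 4 groups (adjusted p = 0.0506 and 0.0587) and on leaving out av14.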

How the results depend on the processing

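No called value reversed its sign under any alternative. Over all alternatives, values of called genes kept their call 159 times and lost it 47 times, and values of genes not called stayed so 1117 times, gained a call 28 times and changed sign 44 times. No paired analysis was possible because the columns carry mouse numbers, not the replicate numbers of the labels. With 2 control livers, calls against controls rest on few samples. The causes of the changes below were not tested.

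The count of called genes in Cse-/- against Cse+/- no-Cys livers (4 in all) was 2 at an adjusted p under 0.01 and 2 to 6 with 1 mouse left out. Against Cse-/- no-Trp livers (2) it was 1 in a fit of only these groups, 1 at 0.01, 3 with DESeq2, 3 without av01 and av08, and 1 to 3 with 1 mouse left out. Against BSO-treated livers (2) it was 4 with DESeq2, 3 without av01 and av08, 0 at 0.01, and 0 to 3 with 1 mouse left out. For Cse+/- no-Cys against control livers (1) it was 0 in a fit of only these groups, 0 at 0.01, 2 without av01 and av08, and 0 to 2 with 1 mouse left out. For Cse+/- no-Trp against control livers (0) it was 1 with no filter and 1 with DESeq2. For Cse+/- no-Cys against no-Trp livers (0) it was 1 with no filter, with DESeq2 and without av01 and av08, and 0 to 1 with 1 mouse left out. For the interaction (2) it was 0 in a fit of only these groups, 0 at 0.01, and 0 to 2 with 1 mouse left out.

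Signs changed only in values that were not called. Between Cse+/- livers of the 2 deficient diets, Glul was -0.0059 with upper-quartile factors, -0.016 with no filter and -0.0033 in a fit of only these groups. Without av01 and av08, the same comparison gave -0.17 for Ass1, -0.15 for Asl and -0.086 for Gls2, and Gls2 was -0.052 in Cse-/- no-Cys against no-Trp livers. With 1 mouse left out, the latter comparison gave -0.12 to 0.20 for Gls2 and -0.20 to 0.00054 for Glul. Between genotypes on the no-Trp diet the values were -0.020 to 0.39 for Cps1, -0.096 to 0.19 for Ass1, -0.090 to 0.23 for Asl and -0.25 to 0.11 for Slc25a15. For the addition of BSO they were -0.17 to 0.18 for Cps1, -0.035 to 0.25 for Ass1, -0.042 to 0.25 for Asl and -0.29 to 0.028 for Gls2. Otc against controls on the no-Cys diet was -0.086 to 0.042, and Oat against controls on the no-Trp diet was -0.19 to 0.18. Between the Cse+/- diets the values were -0.24 to 0.17 for Cps1, -0.17 to 0.19 for Ass1, -0.15 to 0.16 for Asl, -0.086 to 0.13 for Gls2 and -0.048 to 0.049 for Glul. The interaction was -0.14 to 0.18 for Gls2 and -0.20 to 0.0048 for Glul.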

Other observations

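Genes of liver zones and of hormone response were counted as well, since the urea cycle genes are mainly periportal and Glul and Oat pericentral. On the no-Cys diet, 4 of 20 further periportal genes were higher in Cse-/- livers and 9 were lower (median of the 20 on the log2 scale -0.28), where 11.6% of all genes were called higher and 12.2% lower. The largest changes were those of the sulfotransferase gene Sult5a1 (-1.39), the immunoglobulin receptor Pigr (-0.95), Etnppl (0.87) and Hsd17b6 (-0.82). Of 22 pericentral genes, 4 were higher and 5 lower, with a median of -0.19. Gstm3 (2.46) and Cyp2a5 (2.25), enzymes of detoxification, were highest, and Cyp7a1, the rate-limiting enzyme of bile acid synthesis (-1.43), and Rgn (-1.29) lowest. The 13 called periportal genes were 8 without av02 and 7 without av07, and the 9 pericentral ones ranged from 6 to 9. These counts were 13 and 10 without av01 and av08. Against BSO-treated livers, where Glul was lower, 1 of the 22 pericentral genes was higher (Gstm3, 1.41) and 5 lower, namely the Wnt targets Axin2 (-1.20), Tbx3 (-1.17), Sp5 (-1.04) and Rnf43 (-1.04), and Rgn (-0.80), though these 6 were 0 to 2 without av05, av06, av07, av09, av11 or av12 and 10 without av08, with or without av01, and 2.75% of all genes were called in that comparison. Between genotypes on the no-Cys diet none of these Wnt targets was called (Axin2 -0.14, Tbx3 0.06, Sp5 0.01, Rnf43 -0.29). Mean Axin2, Tbx3, Sp5 and Rnf43 were 6.72, 26.8, 1.73 and 20.9 CPM in Cse-/- no-Cys livers. They were 15.3, 60.4, 3.51 and 42.8 CPM in BSO-treated and 4.34, 18.1, 1.34 and 12.4 CPM in control livers. Adding BSO to the no-Trp diet gave positive values for 19 of the 22 pericentral genes (median 0.19). Against Cse-/- no-Trp livers, where Glul was not called (-0.09), 3 of the 22 were higher, namely Gstm3 (3.64), Cyp2a5 (1.54) and Cyp1a2 (0.94), and 4 lower, namely Tbx3 (-0.95), Sp5 (-0.90), Rgn (-0.83) and Cyp2e1 (-0.38), where 10.4% of all genes were called. These 7 were 3 without av06 or av14, 4 without av05, 9 without av08 and 11 without av01 and av08.

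Between genotypes on the no-Cys diet, 1 of 20 hormone-responsive genes was higher in Cse-/- livers and 3 were lower, a share near the 23.8% of all genes called, and 7 were called without av01 and av08. Igfbp1, which insulin represses, was higher (1.26). The glucocorticoid target Tsc22d3 (-1.40), the transcription factor Cebpb (-0.68) and the glucocorticoid receptor gene Nr3c1 (-0.38) were lower. Against Cse-/- no-Trp livers, Cebpa (-0.52) and Nr3c1 (-0.39) were lower, a share near the 10.4% of all genes called. This count was 0 to 5 with single mice left out and 4 without av01 and av08. In Cse+/- livers on the no-Cys diet, where Asl was lower than in controls, 3 of the 20 were lower, namely Igfbp1 (-2.11), Sds (-1.19) and Fkbp5 (-1.07), where 2.18% of all genes were called. None of the 20 was called without av22, and 4 were without av01 and av08. On the no-Trp diet, where Asl was at -0.95, Sds alone of the 20 was called by edgeR (-1.30), and it was not without av17, av20 or av22. DESeq2 called 3 of the 20. Of the 20 periportal genes, Sds, Etnppl (-0.99) and Igf1 (-0.58) were lower than in controls on the no-Cys diet, and Etnppl (-1.76) and Sds on the no-Trp diet, where 0.0474% of all genes were called. None of them was called without av22 on the no-Cys diet, or without av17 or av20 on the no-Trp diet. With av01 and av08 left out, 3 of the 20 periportal genes were called on the no-Cys diet. DESeq2 called 4 of the 20 on the no-Trp diet.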
